A study of Homo sapiens with 72 samples.

Results

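Interferon-stimulated genes are the genes that cells switch on after interferon, and 46 of them, chosen by name from textbook members of the response, were followed here among the 26485 genes counted in poly(A)-selected RNA. Membership goes by gene name and not by a measured value. The members were nevertheless chosen with earlier results of these data known, so the shares of them called are no independent test. The samples were human cancer cell lines with and without mutations in TUT4 and TUT7, the terminal uridyl transferases that add uridines to RNA 3′ ends. DU145 is a prostate cancer line that makes no LIN28A, LIN28A OE DU145 carries a lentiviral LIN28A cDNA under a CMV promoter with puromycin selection, and IGROV1 is an ovarian cancer line with its own LIN28A. Each background was sequenced as parental wild-type cells and as 2 TUT4/7 catalytic knockout clones (cKO #1 and #2), made with a Cas9 nickase aimed at both genes, and each of the 9 groups held 4 libraries. The labels name no interferon treatment. Each cKO line is 1 sorted clone, whereas the wild-type cells are the parental population, and the clone names of DU145 are those of LIN28A OE DU145. The 4 libraries of a group came from consecutive passages. The p-values below therefore measure the spread between these libraries and not between independent clones. Passage was labelled P157 to P160 for wild-type DU145, P9 to P12 for its TUT4/7 cKO #1 and P8 to P11 for its TUT4/7 cKO #2. Passage and genotype cannot be told apart in DU145. LIN28A OE DU145 was at P1 to P4 in all 3 groups, and IGROV1 at P6 to P9 in the wild-type, P2 to P5 in TUT4/7 cKO #1 and P3 to P6 in TUT4/7 cKO #2.

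Type I and type III interferons are secreted when RNA sensors such as RIG-I, MDA5 and LGP2 meet double-stranded RNA, and they act through paired receptors and JAK kinases. The kinases switch on a complex of STAT2, a partner STAT and IRF9, which binds a promoter sequence named the interferon-stimulated response element. Its targets include the IFIT proteins, which hold back foreign RNA, the OAS enzymes, whose 2-5A product activates RNase L, the ubiquitin-like protein ISG15 with its conjugation machinery, and antigen-processing subunits that also answer to interferon gamma. Established epithelial tumour lines differ in how much of this programme they run without added interferon.

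Levels are given as CPM, the counts of a gene per 1000000 counts of its library over all genes, with no correction for gene length. Library totals ran from 7195437 to 25054688 counts, so that 1 count was worth 0.0399 to 0.139 CPM. LIN28A was at most 0.460 CPM in DU145, 64.8 to 74.7 CPM in wild-type LIN28A OE DU145, 325 to 406 CPM in its TUT4/7 cKO #1, 229 to 320.2 CPM in its TUT4/7 cKO #2, and 158.996 to 325 CPM in IGROV1. LIN28A itself therefore differed between the wild-type and cKO lines of LIN28A OE DU145. TUT4 RNA was 44.9 to 66.02 CPM in wild-type DU145, 5.003 to 15.5 CPM in TUT4/7 cKO #1 and 27.3 to 49.8 CPM in TUT4/7 cKO #2. With LIN28A OE it was 52.3 to 76.3 CPM in the wild-type and 58.6 to 65.0 CPM in TUT4/7 cKO #2, where the ranges overlapped. Gene counts do not read the edited exons, so the RNA level of TUT4 and TUT7 is no check of the mutations themselves. KLK2 and KLK3, kallikreins of the prostate lumen, were at or near 0 in every DU145 library, so these genes give no check of that line's tissue. PAX8, a Müllerian lineage factor, averaged 639.8 CPM in wild-type IGROV1 and at most 2.15 CPM in any DU145 group, and WT1 averaged 0.329 CPM in wild-type IGROV1. MUC16, the third ovarian carcinoma marker followed, went against this, with 2.11 CPM in wild-type IGROV1, 23.1 CPM in wild-type DU145, 2.495 and 35.7 CPM in its TUT4/7 cKO #1 and #2, and 64.3, 4.34 and 145 CPM in the same order with LIN28A OE. The 5 epithelial markers summed to 1118 to 1242 CPM in wild-type IGROV1, 709.9 to 1204 CPM in TUT4/7 cKO #1 and 324 to 380.3 CPM in TUT4/7 cKO #2, and EPCAM fell from 77.4 to 0.245 and 0.127 CPM. They summed to 1442 to 3573 CPM in the DU145 groups. The 5 immune cell markers summed to 9.94 to 91.2 CPM, nearly all of it CD68, while CD3E was at 0 in every library and PTPRC averaged at most 0.187 CPM in any group. That sum was 49.0 to 56.0 CPM in wild-type DU145 and 77.2 to 91.2 CPM in its TUT4/7 cKO #1, and its part in the results was not tested. The fibroblast markers DCN and LUM each averaged at most 0.0555 CPM in any group, and the 4 fibroblast markers summed to at most 25.5 CPM. Replicates 4 of TUT4/7 cKO #1 and #2 in IGROV1 and in DU145 stood apart from their group mates, with log2 deviations whose spread over genes was 0.733 and 0.550 in IGROV1 and 0.405 and 0.354 in DU145 and with fewer counts on long genes. Replicates 1 of wild-type LIN28A OE DU145 and of wild-type DU145 deviated to a like degree, with spreads of 0.457 and 0.366 and also fewer counts on long genes. Counts of members called are given without the 4 mutant libraries and without all 6, which are the farthest library of each group where the spread was over 0.35. Both sets were chosen after seeing the data.

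The response element can be read in the promoters of the members. RefSeq promoter windows on GRCh38.p14, each 250 bases before to 50 bases after a start site, were matched for 38 of the 46 members, and 24 of these 38 (63.2%) held the motif GAAANNGAAA or, read on the other strand, TTTCNNTTTC, the tandem repeat of the element with 2 free bases between the copies. The same letters were in the windows of 4.38% of the 27305 genes with a window. A match is a description of the letters and not a measured binding site, and matches can overlap. Of the 18 members that were higher in both DU145 TUT4/7 cKO clones, which share their wild-type libraries, 13 had a window and 11 of these held the motif. In DU145 TUT4/7 cKO #1 it was in 17 of 25 higher members with a window and 5 of 10 not called. In DU145 TUT4/7 cKO #2 it was in 13 of 16 and 9 of 19. In IGROV1 it was in 4 of 5 lower members with a window in either clone, and in 16 of 27 and 15 of 25 not called. A link between the motif and the changes was not tested. The stretches below are shown because their genes carry the DU145 result or, for PLSCR1, HERC5 and TAP1, because they moved otherwise in another line or clone, and capitals mark the motif.

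From the plus strand, chr1:1013369-1013414 lies upstream of ISG15, chr10:89392492-89392544 upstream of IFIT1, chr10:89332420-89332502 upstream of IFIT3, chr10:89414508-89414567 upstream of IFIT5, chr14:94110613-94110665 upstream of IFI27 and chr4:88456979-88457069 upstream of HERC5. From the minus strand, chr1:27672261-27672363 lies upstream of IFI6, chr3:122564317-122564356 upstream of PARP9, chr3:146544662-146544701 upstream of PLSCR1 and chr6:32853808-32853853 upstream of TAP1. Every stretch ends before an annotated start site of the gene it is named for.
ISG15: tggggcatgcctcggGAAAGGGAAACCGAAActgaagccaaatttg
IFIT1: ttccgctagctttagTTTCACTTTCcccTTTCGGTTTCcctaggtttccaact
IFIT3: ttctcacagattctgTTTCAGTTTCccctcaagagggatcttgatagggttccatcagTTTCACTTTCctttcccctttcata
IFIT5: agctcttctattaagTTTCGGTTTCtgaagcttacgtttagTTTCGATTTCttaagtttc
IFI27: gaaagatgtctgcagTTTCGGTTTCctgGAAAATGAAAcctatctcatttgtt
HERC5: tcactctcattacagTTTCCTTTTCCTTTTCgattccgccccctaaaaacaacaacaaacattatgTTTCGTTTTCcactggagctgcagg
IFI6: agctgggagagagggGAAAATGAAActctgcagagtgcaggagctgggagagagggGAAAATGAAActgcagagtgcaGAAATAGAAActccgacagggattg
PARP9: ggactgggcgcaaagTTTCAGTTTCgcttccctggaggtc
PLSCR1: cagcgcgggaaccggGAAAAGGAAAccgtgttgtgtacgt
TAP1: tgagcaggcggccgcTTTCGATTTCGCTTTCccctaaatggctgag

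In ISG15 the matches overlap, so that 3 copies of the repeat run together, and TAP1 shows the same arrangement on the other strand. In the stretches shown, IFIT1, IFIT3, IFIT5 and IFI27 each hold a pair of separate matches, IFI6 and HERC5 hold 3, and PARP9 and PLSCR1 hold 1. IFIT5 has a further match from base -4 of the start site, and IFIT3 a further pair upstream of another annotated start site, and these are not shown. The PARP9 stretch also spans the annotated start of DTX3L, where the match runs from base -6 of that start. PARP9 and DTX3L are transcribed away from each other from this region.

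Many interferon-stimulated genes had higher levels in the TUT4/7 mutant clones of DU145 than in the wild-type. In TUT4/7 cKO #1, 31 of the 43 members that passed the filter on low counts were higher than in the wild-type and 1 was lower, and in TUT4/7 cKO #2, 21 were higher and 0 lower. A gene was called at an adjusted p under 0.01 (edgeR quasi-likelihood test, Benjamini-Hochberg over 15556 genes). Of all genes tested, 10.4% were called higher and 11.3% lower in TUT4/7 cKO #1, and 9.99% and 10.5% in TUT4/7 cKO #2. The median log2 fold change of the members was 1.07 in TUT4/7 cKO #1 and 1.03 in TUT4/7 cKO #2, against -0.007 and -0.005 over all genes. For both clones together against the wild-type, 27 members were higher and 0 lower, where 7.84% and 10.2% of all genes were called, with a members' median of 1.09. Without the replicates 4 named above, 36 members were called in TUT4/7 cKO #1, 24 in TUT4/7 cKO #2 and 32 for both together, and without all 6 libraries the counts were 37, 25 and 31. Summed over the 46 members, the level was 1532.5 ± 121 CPM in the wild-type (SD, n = 4), 2647 ± 661 CPM in TUT4/7 cKO #1 and 2865 ± 412 CPM in TUT4/7 cKO #2. In bulk RNA a change in the number of cells expressing a gene and a change in its level per cell cannot be told apart.

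**Figure D1:**
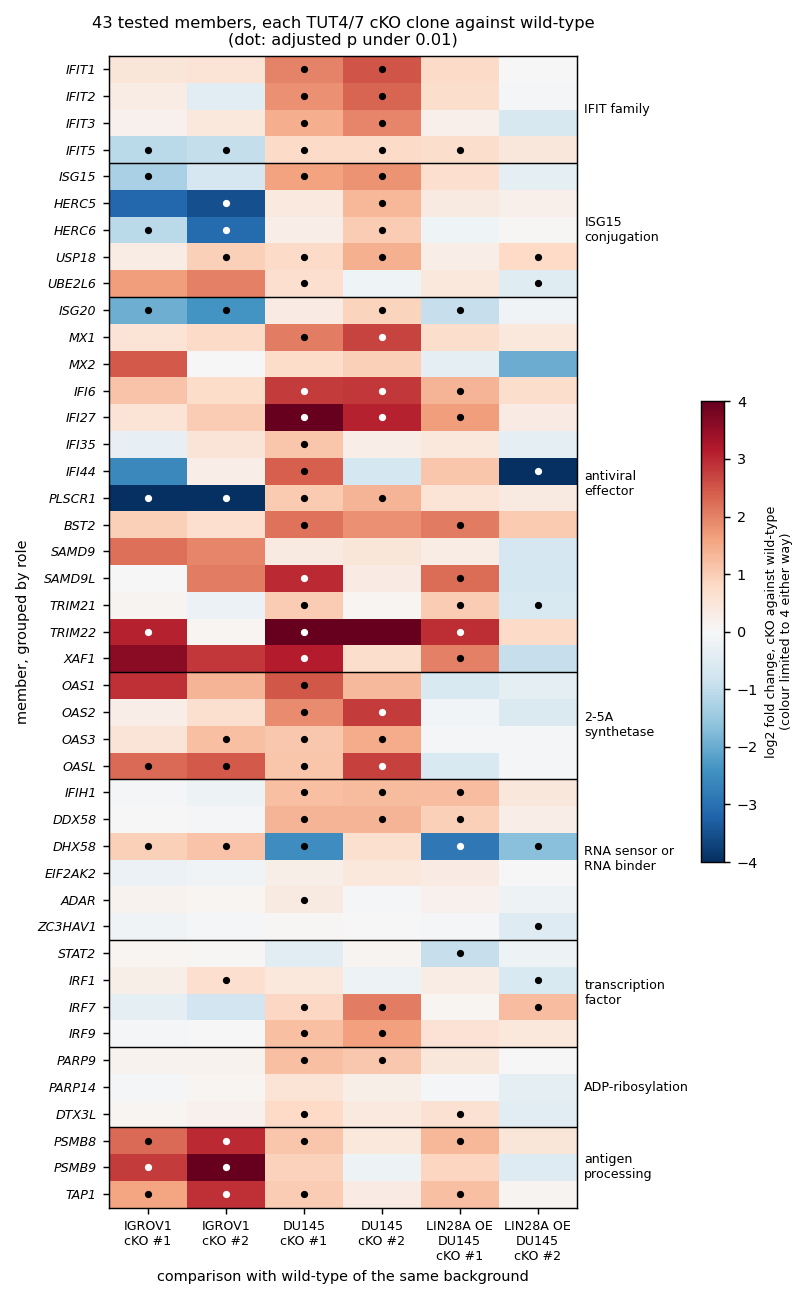
Log2 fold change of each of the 43 tested members (rows, grouped by role) in each TUT4/7 cKO clone against the wild-type of its background (columns), with red for higher, blue for lower and a dot for an adjusted p under 0.01. The DU145 columns are mostly red, with 31 and 21 members called higher, while the IGROV1 columns mix red in the antigen-processing rows with blue for PLSCR1 and ISG20.

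The IFIT family, which bind RNA with foreign 5′ ends, rose as a group: 4 of 4 members in either DU145 clone. IFIT1 stood at 20.4, 13.7, 9.47 and 27.1 CPM in the 4 wild-type libraries, 80.0, 120.3, 52.1 and 28.1 CPM in TUT4/7 cKO #1 and 139.6, 132, 98.4 and 67.5 CPM in TUT4/7 cKO #2. Every mutant library was above every wild-type library, though replicate 4 of TUT4/7 cKO #1 only just. The log2 fold change of IFIT1 was 1.99 ± 0.30 (SE, n = 4 against 4, adjusted p = 4.95e-06) in TUT4/7 cKO #1 and 2.51 ± 0.31 (adjusted p = 9.11e-08) in TUT4/7 cKO #2. IFIT2 was at 13.2, 13.1, 10.6 and 20.8 CPM in the wild-type, 57.0, 77.3, 46.6 and 22.4 CPM in TUT4/7 cKO #1 and 98.2, 90.7, 76.0 and 51.8 CPM in TUT4/7 cKO #2. The log2 fold changes were 1.82 ± 0.27 and 2.34 ± 0.27. IFIT3, which stabilises IFIT1 on RNA, was at 27.0, 15.7, 11.5 and 30.4 CPM in the wild-type, 63.0, 95.1, 52.3 and 23.8 CPM in TUT4/7 cKO #1 and 97.1, 118, 86.7 and 57.6 CPM in TUT4/7 cKO #2. The changes were 1.47 ± 0.30 and 1.96 ± 0.30, and replicate 4 of TUT4/7 cKO #1 fell within the wild-type range for IFIT3 alone of these 3 genes. IFIT5 changed less, by 0.76 ± 0.21 in TUT4/7 cKO #1 and 0.76 ± 0.21 in TUT4/7 cKO #2.

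**Figure D2:**
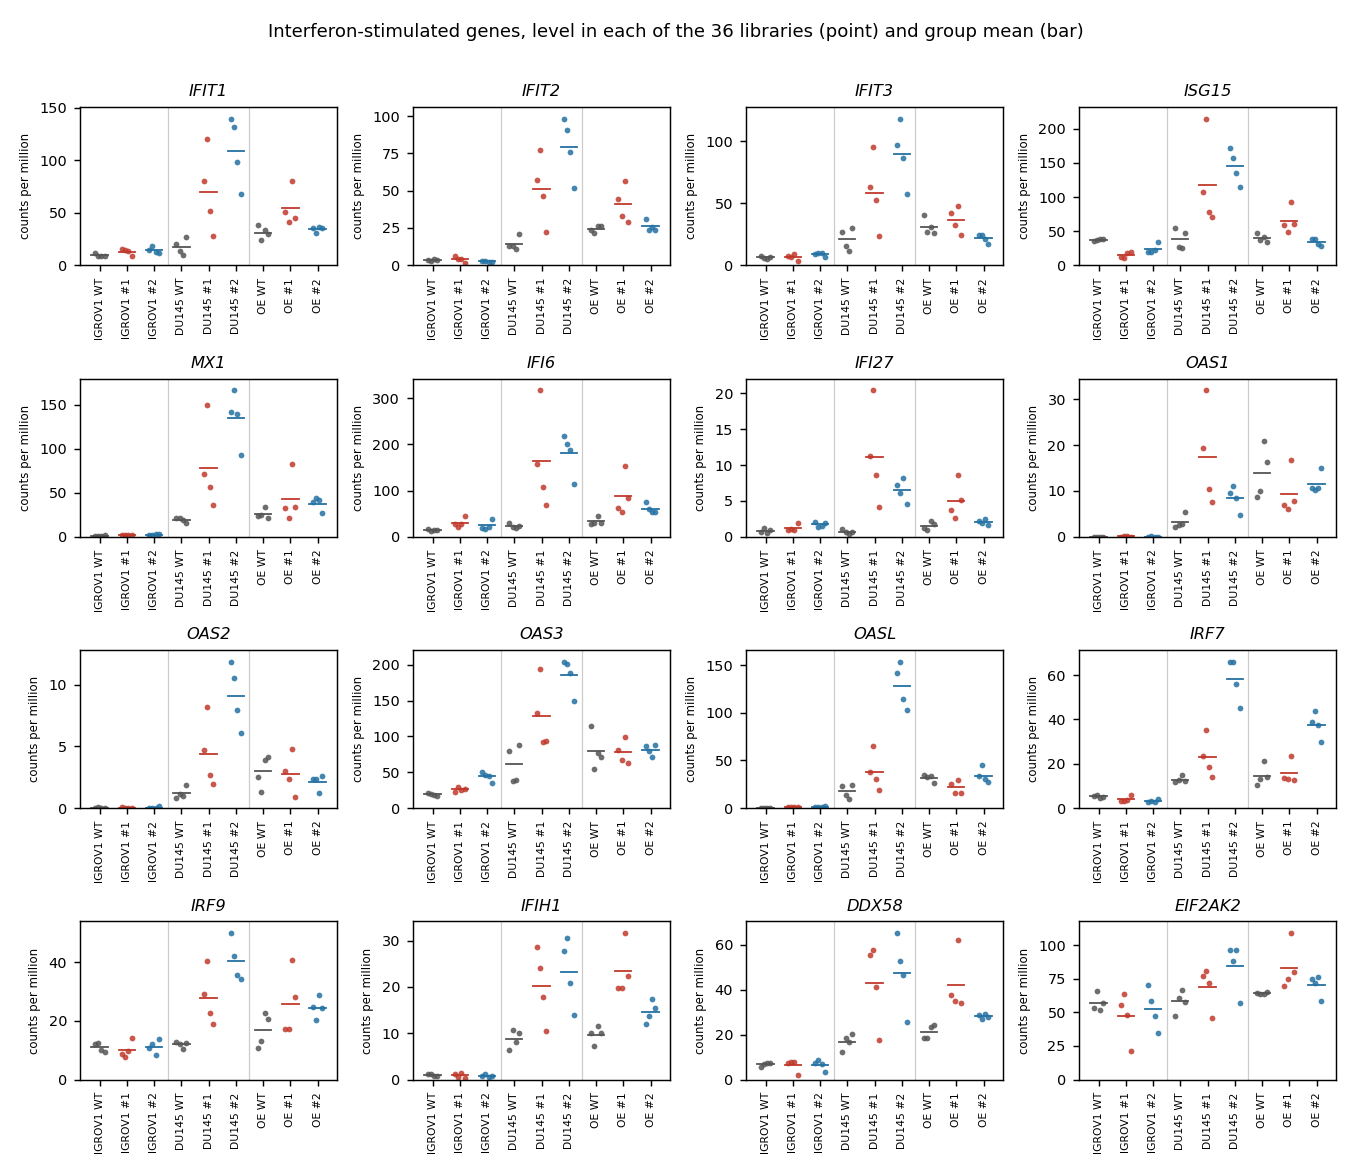
Levels (CPM) of 16 members in each of the 36 libraries (points) with the group mean (bar), for wild-type (WT, grey), TUT4/7 cKO #1 (red) and TUT4/7 cKO #2 (blue) of IGROV1, DU145 and LIN28A OE DU145 (OE), each panel on its own linear axis from 0. IFIT1 rises from 9.47 to 27.1 CPM in wild-type DU145 to 67.5 to 139.6 CPM in TUT4/7 cKO #2, and stays between 30.7 and 36.8 CPM in LIN28A OE DU145 TUT4/7 cKO #2.

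The 2-5A synthetase family rose in 4 of 4 members in TUT4/7 cKO #1 and in 3 of 4 in TUT4/7 cKO #2. OAS1 was at 2.15, 2.49, 2.67 and 5.30 CPM in wild-type DU145, 19.4, 32.0, 10.4 and 7.50 CPM in TUT4/7 cKO #1 and 9.51, 11.1, 8.44 and 4.74 CPM in TUT4/7 cKO #2. The log2 fold change of OAS1 was 2.48 ± 0.40 (adjusted p = 1.62e-05) in TUT4/7 cKO #1, while the 1.31 ± 0.41 in TUT4/7 cKO #2 missed the threshold (adjusted p = 0.0147) and 1 of its libraries lay below the highest wild-type library. OAS2 had low counts, with 0.818, 1.14, 1.01 and 1.88 CPM in the wild-type, 4.71, 8.16, 2.67 and 1.95 CPM in TUT4/7 cKO #1 and 11.9, 10.5, 7.96 and 6.09 CPM in TUT4/7 cKO #2. On the log2 scale the changes were 1.88 ± 0.46 and 2.79 ± 0.44. All mutant libraries lay above all wild-type libraries for OAS2. OAS3 was at 79.4, 37.4, 39.2 and 87.4 CPM in the wild-type, 133, 195, 92.1 and 93.5 CPM in TUT4/7 cKO #1 and 204, 202, 188 and 150.0 CPM in TUT4/7 cKO #2. Its log2 fold changes were 1.07 ± 0.23 and 1.49 ± 0.23. OASL, a catalytically inactive relative that binds the sensor RIG-I, was at 23.6, 13.6, 9.56 and 24.6 CPM in the wild-type, 38.2, 64.8, 30.6 and 19.5 CPM in TUT4/7 cKO #1 and 142, 154, 115 and 102 CPM in TUT4/7 cKO #2. Replicate 4 of TUT4/7 cKO #1 lay within the wild-type range for OASL. Its log2 fold change was 1.10 ± 0.29 in TUT4/7 cKO #1 and 2.72 ± 0.29 in TUT4/7 cKO #2, and TUT4/7 cKO #2 exceeded TUT4/7 cKO #1 by 1.62 ± 0.28 (adjusted p = 1.7e-05).

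ISG15 and the enzymes that attach or remove it were called higher in 3 of 5 members in TUT4/7 cKO #1 and 4 of 5 in TUT4/7 cKO #2. ISG15 itself was at 54.4, 26.8, 25.9 and 47.1 CPM in the wild-type, 108, 215, 78.2 and 70.7 CPM in TUT4/7 cKO #1 and 172, 157.8, 136 and 115 CPM in TUT4/7 cKO #2, without overlap between mutant and wild-type libraries. The log2 fold change of ISG15 was 1.60 ± 0.29 (adjusted p = 4.86e-05) and 1.78 ± 0.29 (adjusted p = 1.01e-05). USP18, which removes ISG15 from proteins and damps the receptor, was at 14.9, 11.1, 12.1 and 12.5 CPM in the wild-type, 20.8, 27.4, 18.8 and 20.0 CPM in TUT4/7 cKO #1 and 36.5, 39.6, 34.8 and 36.2 CPM in TUT4/7 cKO #2. The log2 fold changes were 0.78 ± 0.13 and 1.41 ± 0.13. HERC5, the main ISG15 ligase, was at 18.2, 14.6, 14.8 and 20.6 CPM in the wild-type, 26.1, 27.2, 21.9 and 14.6 CPM in TUT4/7 cKO #1 and 54.4, 58.8, 44.2 and 28.1 CPM in TUT4/7 cKO #2. It was called in TUT4/7 cKO #2 only (1.31 ± 0.23, against 0.39 ± 0.23 in TUT4/7 cKO #1), as was its neighbour HERC6 (1.03 ± 0.18 against 0.28 ± 0.18). Both exceeded TUT4/7 cKO #1 in a direct test, by 0.92 ± 0.23 and 0.75 ± 0.18. UBE2L6, the conjugating enzyme, went the other way between clones, with 45.8, 43.6, 40.0 and 43.3 CPM in the wild-type, 67.8, 83.2, 62.9 and 60.3 CPM in TUT4/7 cKO #1 and 48.7, 40.8, 42.6 and 34.2 CPM in TUT4/7 cKO #2. It was called in TUT4/7 cKO #1 only (0.66 ± 0.14).

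Among the RNA sensors and double-stranded RNA binders, 3 of 6 rose and 1 fell in TUT4/7 cKO #1, and 2 of 6 rose in TUT4/7 cKO #2. DDX58, which encodes RIG-I, was at 12.2, 18.4, 16.8 and 20.1 CPM in the wild-type, 55.6, 57.7, 41.1 and 17.8 CPM in TUT4/7 cKO #1 and 65.2, 52.6, 46.6 and 25.4 CPM in TUT4/7 cKO #2. The changes were 1.35 ± 0.29 and 1.37 ± 0.29. IFIH1, which encodes MDA5, was at 6.44, 10.8, 8.0001 and 10.0 CPM in the wild-type, 28.6, 24.1, 17.8 and 10.6 CPM in TUT4/7 cKO #1 and 27.8, 30.5, 20.8 and 14.0 CPM in TUT4/7 cKO #2. On the log2 scale the changes were 1.21 ± 0.25 and 1.27 ± 0.25. In both genes replicate 4 of TUT4/7 cKO #1 lay within the wild-type range and every other mutant library above it. DHX58, which encodes LGP2, the sensor that lacks a signalling domain, moved against the other sensors in TUT4/7 cKO #1. It was at 7.37, 3.74, 3.68 and 3.77 CPM in the wild-type, 0.831, 1.43, 0.711 and 0.139 CPM in TUT4/7 cKO #1 and 11.1, 9.63, 5.73 and 5.61 CPM in TUT4/7 cKO #2. All TUT4/7 cKO #1 libraries were below all others. The log2 fold change of DHX58 was -2.49 ± 0.38 (adjusted p = 5.46e-06) in TUT4/7 cKO #1 and 0.65 ± 0.30 (adjusted p = 0.0961) in TUT4/7 cKO #2. EIF2AK2, the kinase PKR, was at 47.6, 61.1, 66.8 and 58.0 CPM in the wild-type, 77.2, 80.5, 71.8 and 46.001 CPM in TUT4/7 cKO #1 and 96.6, 88.3, 96.3 and 57.2 CPM in TUT4/7 cKO #2. Neither its 0.24 ± 0.21 nor its 0.42 ± 0.21 passed the test. ADAR, which edits adenosines in double-stranded RNA, was at 529, 584, 555 and 569.9 CPM in the wild-type, 728, 759, 716 and 652 CPM in TUT4/7 cKO #1 and 597, 588, 639 and 553 CPM in TUT4/7 cKO #2. It rose by 0.35 ± 0.086 in TUT4/7 cKO #1 (adjusted p = 0.00195). ZC3HAV1, the zinc-finger antiviral protein, changed by 0.047 ± 0.14 and 0.001 ± 0.14, and neither value was called.

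Of the 4 transcription factors of the response, IRF7 and IRF9 rose in both clones, and IRF1 and STAT2 were not called in either. IRF9 was at 12.8, 12.1, 10.4 and 12.5 CPM in the wild-type, 29.0, 40.2, 22.7 and 18.8 CPM in TUT4/7 cKO #1 and 49.9, 42.1, 35.5 and 34.2 CPM in TUT4/7 cKO #2. Its log2 fold changes were 1.21 ± 0.27 and 1.64 ± 0.27, with no overlap with the wild-type. IRF7, which amplifies type I interferon production, was at 11.6, 12.8, 14.9 and 12.01 CPM in the wild-type, 23.5, 35.1, 18.7 and 13.9 CPM in TUT4/7 cKO #1 and 65.9, 66.03, 55.8 and 45.3 CPM in TUT4/7 cKO #2. The rise of IRF7 was 0.83 ± 0.24 in TUT4/7 cKO #1 and 2.06 ± 0.24 in TUT4/7 cKO #2, and the clones differed by 1.23 ± 0.23 (adjusted p = 4.94e-05). STAT2 was at 28.8, 48.5, 43.95 and 50.5 CPM in the wild-type, 40.3, 29.8, 32.0 and 26.7 CPM in TUT4/7 cKO #1 and 55.9, 51.5, 45.2 and 46.7 CPM in TUT4/7 cKO #2. The ranges overlapped, and the log2 fold changes were -0.41 ± 0.17 and 0.098 ± 0.17.

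Of the 17 antiviral effectors, 14 passed the filter, 11 of which rose in TUT4/7 cKO #1 and 5 in TUT4/7 cKO #2. IFI27, a mitochondrial protein, was at 1.13, 0.623, 0.368 and 0.707 CPM in the wild-type, 11.3, 20.4, 8.62 and 4.17 CPM in TUT4/7 cKO #1 and 7.16, 6.13, 8.20 and 4.54 CPM in TUT4/7 cKO #2. This was a log2 rise of 3.98 ± 0.43 and 3.09 ± 0.45. IFI6, which guards the endoplasmic reticulum against flaviviruses, was at 30.0, 20.5, 19.7 and 23.0 CPM in the wild-type, 158.4, 317, 108 and 68.9 CPM in TUT4/7 cKO #1 and 217, 201, 188 and 115 CPM in TUT4/7 cKO #2. The rise of IFI6 was 2.80 ± 0.37 (adjusted p = 3.95e-07) and 2.83 ± 0.37 (adjusted p = 2.65e-07), and the mutant and wild-type libraries of both genes did not overlap. MX1, a dynamin-like GTPase that traps viral nucleocapsids, was at 21.0, 20.9, 18.6 and 16.02 CPM in the wild-type, 70.9, 150.0, 56.4 and 36.4 CPM in TUT4/7 cKO #1 and 142, 167, 139 and 92.9 CPM in TUT4/7 cKO #2. The log2 fold changes were 2.03 ± 0.31 and 2.69 ± 0.32. PLSCR1, a phospholipid scramblase, was at 33.7, 34.0, 31.4 and 36.4 CPM in the wild-type, 78.9, 97.3, 57.9 and 48.4 CPM in TUT4/7 cKO #1 and 106, 107, 89.9 and 72.7 CPM in TUT4/7 cKO #2. This was a log2 rise of 1.06 ± 0.20 and 1.35 ± 0.20 without overlap. ISG20, an exonuclease, was called in TUT4/7 cKO #2 only (0.89 ± 0.22, against 0.34 ± 0.22 in TUT4/7 cKO #1). The direct test between the clones did not call ISG20 (0.55, adjusted p = 0.0399). A further set of effectors was called in TUT4/7 cKO #1 and not in TUT4/7 cKO #2. IFI44 was at 3.27, 1.45, 0.920 and 2.47 CPM in the wild-type, 11.7, 18.7, 8.88 and 2.36 CPM in TUT4/7 cKO #1 and 0.962, 1.63, 1.51 and 1.26 CPM in TUT4/7 cKO #2. It changed by 2.38 ± 0.44 and -0.70 ± 0.52. TRIM21, an antibody receptor and ubiquitin ligase, was at 13.4, 10.7, 9.10 and 14.7 CPM in the wild-type, 24.2, 25.2, 21.8 and 25.2 CPM in TUT4/7 cKO #1 and 15.8, 15.3, 10.7 and 13.2 CPM in TUT4/7 cKO #2. The change was 1.00 ± 0.16 and 0.072 ± 0.16. IFI35 was at 23.5, 16.9, 18.3 and 24.7 CPM in the wild-type, 43.1, 61.7, 38.7 and 37.8 CPM in TUT4/7 cKO #1 and 31.3, 30.0, 25.7 and 21.4 CPM in TUT4/7 cKO #2. It changed by 1.12 ± 0.19 and 0.25 ± 0.19. All 4 libraries of TUT4/7 cKO #1 were above the wild-type for TRIM21 and IFI35, and 3 of 4 for IFI44. BST2, which tethers budding virions, was at 0.307, 0.311, 1.20 and 0.825 CPM in the wild-type, 2.77, 6.81, 1.42 and 0.695 CPM in TUT4/7 cKO #1 and 2.78, 2.88, 3.66 and 0.967 CPM in TUT4/7 cKO #2. It was near the detection limit. BST2 was called in TUT4/7 cKO #1 (2.17 ± 0.63, adjusted p = 0.00819) and not in TUT4/7 cKO #2 (1.82 ± 0.65, adjusted p = 0.0321). Between the clones the direct test did not call BST2 (-0.35, adjusted p = 0.605). SAMD9L was at 0.102, 0.104, 0 and 0.825 CPM in the wild-type, 2.31, 2.78, 2.04 and 0.278 CPM in TUT4/7 cKO #1 and 0.534, 0.375, 0.239 and 0.193 CPM in TUT4/7 cKO #2. XAF1 was at 0.102, 0.208, 0.276 and 0.118 CPM in the wild-type, 1.75, 2.96, 1.24 and 0.417 CPM in TUT4/7 cKO #1 and 0.321, 0.625, 0.239 and 0.193 CPM in TUT4/7 cKO #2. TRIM22 had no count in wild-type DU145 and 1.02, 2.24, 0.533 and 0.139 CPM in TUT4/7 cKO #1. In TUT4/7 cKO #2 it was at 0.534, 0.125, 0.478 and 0 CPM. These were at least 13.7-fold and 3.85-fold higher when the 4 wild-type libraries together were set to 3 counts. The direct test between the clones did not call TRIM22 (-1.89, adjusted p = 0.0264). IFI44L, one of 3 members that failed the filter with CMPK2 and RSAD2, likewise had no count in wild-type DU145 and TUT4/7 cKO #2 and 1.20, 1.97, 0.533 and 0.695 CPM in TUT4/7 cKO #1, at least 14.7-fold above the wild-type by the same floor, with no test.

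Antigen-processing genes rose in 2 of 3 members in TUT4/7 cKO #1 and in none in TUT4/7 cKO #2, where all 3 missed the threshold. PSMB8, an immunoproteasome subunit, was at 70.9, 50.7, 43.4 and 60.3 CPM in the wild-type, 116, 144, 115 and 112 CPM in TUT4/7 cKO #1 and 89.3, 82.8, 86.3 and 70.3 CPM in TUT4/7 cKO #2. The change was 1.11 ± 0.16 and 0.42 ± 0.16. TAP1, a chain of the peptide transporter, was at 71.9, 54.3, 50.2 and 74.9 CPM in the wild-type, 121, 141, 121 and 125 CPM in TUT4/7 cKO #1 and 83.1, 86.7, 84.5 and 90.3 CPM in TUT4/7 cKO #2. The change was 1.01 ± 0.23 and 0.34 ± 0.23. Of the ADP-ribosylation genes, PARP9 rose in both clones (1.21 ± 0.20 and 1.09 ± 0.20). Its partner DTX3L rose in TUT4/7 cKO #1 (0.81 ± 0.19, against 0.38 ± 0.19), and PARP14 in neither (0.56 ± 0.24 and 0.24 ± 0.24). Between the clones the direct test called neither TAP1 (-0.68, adjusted p = 0.0149) nor DTX3L (-0.43, adjusted p = 0.0607).

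In LIN28A OE DU145 fewer members were called. Its wild-type and mutant cells carried the same passage labels, which do not say how long the cells were cultured before. LIN28A RNA also differed between these groups, as given above, and the part of either was not tested. TUT4/7 cKO #1 had 13 members higher and 3 lower than its wild-type, where 11.3% and 13.9% of all genes were called, and the members' median was 0.44. TUT4/7 cKO #2 had 2 higher and 6 lower, where 10.5% and 10.1% of all genes were called, and the members' median was -0.092. The 16 calls in TUT4/7 cKO #1 became 9 without its replicate 3, and the 8 calls in TUT4/7 cKO #2 became 5 without its replicate 1 and 5 without its replicate 2. Without the 6 libraries named above, 19 and 11 were called. For both clones together 3 were higher and 3 lower, where 7.35% and 10.6% of all genes were called, with a median of 0.17, and 12 were called without those 6 libraries. Summed over the members, the level was 1802 ± 119 CPM in the wild-type, 2335 ± 408 CPM in TUT4/7 cKO #1 and 1822 ± 30.8 CPM in TUT4/7 cKO #2 (SD, n = 4 each).

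The genes that led the DU145 clones gave smaller log2 fold changes here, and their wild-type levels were not lower. Wild-type means in LIN28A OE and LIN28A-negative DU145 were 31.2 and 17.7 CPM for IFIT1 and 39.9 and 38.6 CPM for ISG15. They were 13.9 and 3.15 CPM for OAS1 and 25.6 and 19.1 CPM for MX1, and of these only OAS1 was called, as given below. IFIT1 was at 38.1, 24.0, 33.2 and 29.5 CPM in wild-type LIN28A OE DU145, 50.8, 41.7, 80.2 and 44.8 CPM in TUT4/7 cKO #1 and 35.3, 30.7, 36.8 and 35.4 CPM in TUT4/7 cKO #2. The changes were 0.75 ± 0.29 (adjusted p = 0.0393) and 0.012 ± 0.29 (adjusted p = 0.99). ISG15 was at 46.7, 37.4, 41.4 and 34.4 CPM in the wild-type, 59.5, 48.3, 92.9 and 61.0 CPM in TUT4/7 cKO #1 and 39.0, 38.2, 30.7 and 27.6 CPM in TUT4/7 cKO #2. Neither 0.66 ± 0.28 nor -0.37 ± 0.28 was called. None of the 4 OAS genes passed the test in either clone, with log2 fold changes of -0.61 to -0.070 in TUT4/7 cKO #1 and -0.58 to -0.042 in TUT4/7 cKO #2. OAS1 was at 8.63, 9.88, 20.9 and 16.2 CPM in the wild-type, 6.89, 6.03, 16.7 and 7.80 CPM in TUT4/7 cKO #1 and 10.7, 10.1, 10.5 and 15.1 CPM in TUT4/7 cKO #2. MX1 was at 23.4, 24.2, 33.5 and 21.4 CPM in the wild-type, 32.9, 21.6, 82.5 and 34.0 CPM in TUT4/7 cKO #1 and 39.1, 43.8, 41.4 and 26.7 CPM in TUT4/7 cKO #2. Its log2 fold changes of 0.69 ± 0.30 and 0.43 ± 0.30 were not called. Replicate 3 of TUT4/7 cKO #1 was the highest of its group in IFIT1, ISG15, OAS1 and MX1.

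The 13 members that rose in TUT4/7 cKO #1 of LIN28A OE DU145 included effectors, sensors and antigen-processing genes. PSMB8 was at 44.9, 38.7, 39.4 and 43.8 CPM in the wild-type and 117, 88.1, 119 and 106 CPM in TUT4/7 cKO #1. It rose by 1.32 ± 0.16 (adjusted p = 6.9e-08). TAP1 was at 62.5, 42.9, 43.7 and 48.5 CPM in the wild-type and at 121, 109, 130.3 and 107 CPM in TUT4/7 cKO #1, a log2 rise of 1.19 ± 0.23. TRIM21 was at 12.3, 9.30, 9.03 and 8.21 CPM in the wild-type, 21.0, 19.9, 20.0 and 21.3 CPM in TUT4/7 cKO #1 and 6.80, 5.87, 7.53 and 7.99 CPM in TUT4/7 cKO #2. It changed by 1.02 ± 0.15 and -0.61 ± 0.16, both called, with no overlap among the 3 groups. IFI6 was at 27.9, 30.3, 45.8 and 29.2 CPM in the wild-type, 62.9, 53.3, 153 and 83.5 CPM in TUT4/7 cKO #1 and 74.7, 59.1, 52.5 and 52.7 CPM in TUT4/7 cKO #2. It was called in TUT4/7 cKO #1 (1.36 ± 0.35) and not in TUT4/7 cKO #2 (0.71 ± 0.34, adjusted p = 0.12). IFIH1 was at 10.0, 7.20, 11.5 and 10.1 CPM in the wild-type, 19.7, 19.7, 31.6 and 22.4 CPM in TUT4/7 cKO #1 and 12.01, 13.6, 17.3 and 15.5 CPM in TUT4/7 cKO #2. It changed by 1.22 ± 0.24 and 0.46 ± 0.25, of which the first was called. DDX58 rose by 0.95 ± 0.28 in TUT4/7 cKO #1, with 18.6 to 24.1 CPM in the wild-type and 34.1 to 62.1 CPM in the clone, without overlap. IFI27 rose by 1.69 ± 0.37 from 1.16, 0.988, 2.20 and 1.82 to 3.69, 2.65, 8.56 and 5.09 CPM. TRIM22, SAMD9L, XAF1 and BST2 were also called higher, at group means of 1.14, 2.04, 0.896 and 2.69 CPM against 0.133, 0.430, 0.235 and 0.578 CPM in the wild-type. DTX3L and IFIT5 rose by 0.62 ± 0.18 and 0.72 ± 0.20. The members lower in TUT4/7 cKO #1 were STAT2, ISG20 and DHX58. STAT2 was at 46.3, 56.1, 74.3 and 69.2 CPM in the wild-type, 28.5, 29.7, 40.3 and 36.5 CPM in TUT4/7 cKO #1 and 57.0, 50.5, 61.4 and 63.1 CPM in TUT4/7 cKO #2. It changed by -0.91 ± 0.17 in TUT4/7 cKO #1. ISG20 was at 13.6, 20.0, 23.1 and 24.5 CPM in the wild-type and 10.7, 9.41, 13.3 and 10.5 CPM in TUT4/7 cKO #1 (-0.93 ± 0.22). DHX58 was at 4.32, 3.95, 6.02 and 3.55 CPM in the wild-type, 1.15, 0.441, 0.496 and 0.397 CPM in TUT4/7 cKO #1 and 2.11, 1.59, 1.35 and 0.809 CPM in TUT4/7 cKO #2. It changed by -2.86 ± 0.36 and -1.68 ± 0.32, both called.

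In TUT4/7 cKO #2 of LIN28A OE DU145, IRF7 and USP18 were the members called higher. IRF7 was at 10.3, 13.01, 21.3 and 13.9 CPM in the wild-type and 38.9, 43.9, 37.6 and 30.0 CPM in TUT4/7 cKO #2 (1.23 ± 0.23, adjusted p = 8.03e-05), and USP18 was at 13.1, 11.2, 9.47 and 11.05 CPM in the wild-type and 23.3, 21.2, 20.6 and 20.4 CPM in TUT4/7 cKO #2 (0.80 ± 0.13). Both sets of mutant libraries lay above the wild-type. IFI44 had 2.601, 2.32, 3.67 and 1.62 CPM in the wild-type, 4.84, 3.60, 10.2 and 4.43 CPM in TUT4/7 cKO #1 and 0.206, 0, 0 and 0 CPM in TUT4/7 cKO #2, where 1 of 4 libraries held a count. The other called decreases were DHX58, above, and 4 changes of -0.61 to -0.49 in TRIM21, IRF1, ZC3HAV1 and UBE2L6.

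The members were also compared between LIN28A OE and LIN28A-negative DU145 of the same genotype. In wild-type cells 1 member was higher and 0 lower, where 6.67% and 2.55% of all genes were called, and the members' median was 0.27. In TUT4/7 cKO #1, 0 were higher and 2 lower, where 1.93% and 1.16% were called, with a median of -0.33. In TUT4/7 cKO #2, 0 were higher and 20 lower, where 11.2% and 7.78% were called, with a median of -0.74. Passage also differed between these lines, by the labels given above, and the labels name no line with an empty vector. Passage, lentiviral transduction and puromycin selection therefore cannot be told apart from LIN28A. The count in wild-type cells was 2 without replicate 1 of LIN28A OE, and the 2 calls in TUT4/7 cKO #1 became 0 without replicate 2 of DU145 and 1 without its replicate 1 or without replicate 1, 2 or 4 of LIN28A OE. Without the 4 libraries numbered 4, 9 members were called in TUT4/7 cKO #1 and 27 in TUT4/7 cKO #2. Without the 6 libraries the counts were 7 in the wild-type, 12 in TUT4/7 cKO #1 and 29 in TUT4/7 cKO #2.

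**Figure D3:**
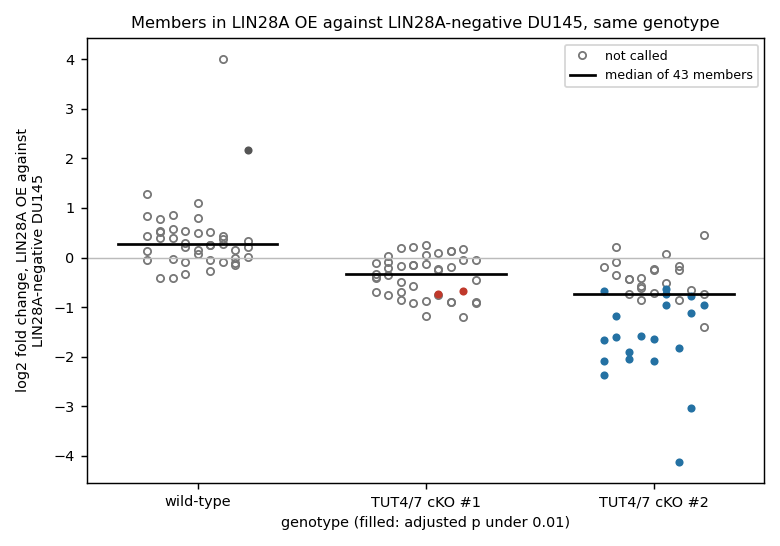
Log2 fold change of each of the 43 tested members (points) in LIN28A OE against LIN28A-negative DU145 of the same genotype (x axis), filled where the adjusted p was under 0.01, with the median as a bar. The median is 0.27 in the wild-type, -0.33 in TUT4/7 cKO #1 and -0.74 in TUT4/7 cKO #2, where 20 members were called lower.

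OAS1 was the member called in wild-type cells, with 2.15, 2.49, 2.67 and 5.30 CPM in LIN28A-negative and 8.63, 9.88, 20.9 and 16.2 CPM in LIN28A OE cells, a log2 difference of 2.16 ± 0.40 (adjusted p = 0.000276) without overlap. In TUT4/7 cKO #1 the members called lower were USP18 (-0.67 ± 0.13) and IFI35 (-0.75 ± 0.18). In TUT4/7 cKO #2 the lower members included IFIT1 (-1.66 ± 0.29), IFIT2 (-1.60 ± 0.26), IFIT3 (-2.04 ± 0.30), ISG15 (-2.09 ± 0.29) and MX1 (-1.83 ± 0.30). ISG15 was at 172, 157.8, 136 and 115 CPM in LIN28A-negative and 39.0, 38.2, 30.7 and 27.6 CPM in LIN28A OE cells of this clone, which did not overlap. OAS2, OASL and OAS3 were lower by the same comparison at -2.09 ± 0.39, -1.91 ± 0.28 and -1.19 ± 0.23, whereas OAS1 stood at 0.46 ± 0.36 and was not called. OASL was at 142, 154, 115 and 102 CPM in LIN28A-negative and 33.6, 44.9, 30.2 and 26.9 CPM in LIN28A OE cells. MX2, a relative of MX1 that restricts lentiviruses, was at 6.196, 5.502, 3.42 and 2.13 CPM and 0.464, 0.734, 0.301 and 0.505 CPM in the same order (-3.04 ± 0.61, adjusted p = 0.000548), without overlap. The sensors DDX58 and IFIH1 were not called in this clone, at -0.75 ± 0.28 (adjusted p = 0.036) and -0.67 ± 0.24 (adjusted p = 0.0329). The sensor gene DHX58 was called lower, at -2.37. It was at 11.1, 9.63, 5.73 and 5.61 CPM in LIN28A-negative and 2.11, 1.59, 1.35 and 0.809 CPM in LIN28A OE cells. IRF7 was not called, at -0.62 ± 0.22.

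Whether the change on TUT4/7 mutation itself differed between LIN28A OE and LIN28A-negative DU145 was tested as an interaction over both clones. It was called for 8 of 43 members, all with a more negative change in LIN28A OE cells, where 0.18% of all genes were called higher and 0.309% lower. The members' median difference was -0.74, against 0.007 over all genes. The 8 were the 4 OAS genes, IFIT1, IFIT2, IFIT3 and MX1. OAS2 differed by -2.68 ± 0.54 (adjusted p = 0.0057), OAS1 by -2.39 ± 0.47 (adjusted p = 0.00576) and IFIT1 by -1.86 ± 0.36 (adjusted p = 0.00453). ISG15 differed by -1.55 ± 0.35 and missed the threshold (adjusted p = 0.015), as did IFI6 at -1.78 ± 0.43 (adjusted p = 0.0258) and IFI27 at -2.53 ± 0.55 (adjusted p = 0.0122). The 8 genes all rose in DU145, and the interaction tests that difference and not the level in LIN28A OE cells. This count depended on single libraries: it was 2 and 1 without replicate 2 or 3 of wild-type DU145, and 3 and 5 without replicate 3 or 4 of wild-type LIN28A OE DU145. It was 12 without replicate 4 of DU145 TUT4/7 cKO #1, 17 without the 4 libraries numbered 4 and 19 without the 6. Passage, transduction and selection differ between the backgrounds here too and cannot be told apart from LIN28A.

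In IGROV1 the members split. TUT4/7 cKO #1 had 6 members higher and 5 lower, where 14.5% and 16.6% of all genes were called, with a members' median of 0.18. TUT4/7 cKO #2 had 8 higher and 5 lower, where 14.2% and 15.9% were called, with a median of 0.27. For both clones together 8 were higher and 6 lower, where 15.1% and 18.1% were called, with a median of 0.30. The shares of members called were thus near those of all genes. The summed level was 1326 ± 72.2 CPM in the wild-type, 1618 ± 66.2 CPM in TUT4/7 cKO #1 and 1722 ± 175 CPM in TUT4/7 cKO #2. BST2 alone made up 356 ± 26.6, 656 ± 70.7 and 566 ± 84.7 CPM of this, and it was called in neither clone. Without replicates 4 of the mutant lines, 11 members were called in TUT4/7 cKO #1, 15 in TUT4/7 cKO #2 and 15 for both, and without the 6 libraries 13, 15 and 16. The epithelial markers KRT8 and EPCAM fell in the same mutant lines, as given above for EPCAM, and their part in these results was not tested.

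Antigen-processing genes rose in 3 of 3 members in either IGROV1 clone. PSMB9, an immunoproteasome subunit encoded beside TAP1, was at 1.71, 2.31, 2.53 and 2.43 CPM in the wild-type, 9.37, 9.69, 13.3 and 28.3 CPM in TUT4/7 cKO #1 and 53.5, 36.9, 53.0 and 127 CPM in TUT4/7 cKO #2. Its log2 fold change was 2.81 ± 0.38 (adjusted p = 2.71e-07) in TUT4/7 cKO #1 and 4.92 ± 0.39 (adjusted p = 2.3e-12), or 30.2-fold, in TUT4/7 cKO #2, with replicate 4 the highest of either clone and the 3 groups without overlap. TAP1 was at 16.2, 17.7, 14.7 and 14.96 CPM in the wild-type, 31.2, 40.3, 38.0 and 69.9 CPM in TUT4/7 cKO #1 and 104, 79.6, 94.3 and 203 CPM in TUT4/7 cKO #2. This was a log2 rise of 1.57 ± 0.24 and 2.92 ± 0.24. PSMB8 was near the detection limit in the wild-type, at 0.103, 0.356, 0.200 and 0.311 CPM, and at 1.26, 0.900, 1.45 and 1.16 CPM in TUT4/7 cKO #1 and 1.46, 1.44, 2.48 and 2.76 CPM in TUT4/7 cKO #2. This was a log2 rise of 2.28 ± 0.35 and 2.97 ± 0.31. OASL, also low in the wild-type at 0.155, 0.178, 0.399 and 0.259 CPM, was at 0.800, 1.22, 1.55 and 1.16 CPM in TUT4/7 cKO #1 and 0.706, 1.397, 1.43 and 2.04 CPM in TUT4/7 cKO #2 (2.255 ± 0.59 and 2.44 ± 0.55). DHX58 rose in both IGROV1 clones, from 4.04, 3.56, 3.86 and 3.68 CPM to 6.40, 5.72, 7.33 and 8.67 CPM and 6.10, 8.30, 9.11 and 10.7 CPM, by 0.94 ± 0.29 and 1.16 ± 0.28. OAS3 was at 20.9, 20.0, 18.6 and 16.6 CPM in the wild-type, 22.8, 29.9, 24.9 and 26.5 CPM in TUT4/7 cKO #1 and 50.3, 46.5, 44.7 and 35.1 CPM in TUT4/7 cKO #2. It was called in TUT4/7 cKO #2 (1.19 ± 0.24) and not in TUT4/7 cKO #1 (0.51 ± 0.24). USP18 and IRF1 were also called higher in TUT4/7 cKO #2, by 0.96 ± 0.14 and 0.68 ± 0.17. TRIM22 rose in TUT4/7 cKO #1 and not in TUT4/7 cKO #2, at 0.673, 1.48, 1.20 and 0.725 CPM in the wild-type, 8.29, 8.15, 8.47 and 8.15 CPM in TUT4/7 cKO #1 and 1.06, 1.16, 1.20 and 0.921 CPM in TUT4/7 cKO #2 (3.09 ± 0.42 and 0.086 ± 0.47).

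PLSCR1 showed the steepest decrease of the tested members in IGROV1. It was at 70.5, 52.4, 47.0 and 45.2 CPM in the wild-type, 2.06, 2.01, 2.17 and 1.94 CPM in TUT4/7 cKO #1 and 2.72, 2.87, 3.16 and 1.25 CPM in TUT4/7 cKO #2. This was 25.3-fold and 21.8-fold lower, or -4.66 ± 0.25 (adjusted p = 7.12e-17) and -4.44 ± 0.24 (adjusted p = 7.03e-17) on the log2 scale. ISG20 was at 7.87, 8.12, 7.52 and 7.45 CPM in the wild-type, 2.23, 1.01, 2.79 and 1.94 CPM in TUT4/7 cKO #1 and 1.16, 1.36, 0.903 and 2.57 CPM in TUT4/7 cKO #2. The change was -1.95 ± 0.26 and -2.39 ± 0.26. IFIT5 was at 5.85, 8.30, 5.99 and 8.23 CPM in the wild-type, 4.17, 3.34, 2.99 and 1.94 CPM in TUT4/7 cKO #1 and 3.93, 4.67, 4.29 and 2.04 CPM in TUT4/7 cKO #2. It changed by -1.09 ± 0.23 and -0.95 ± 0.22. All 3 genes were lower in every mutant library than in every wild-type library. HERC6 was at 1.76, 1.13, 1.53 and 1.60 CPM in the wild-type, 0.686, 0.688, 0.826 and 0.517 CPM in TUT4/7 cKO #1 and 0.252, 0.239, 0.0753 and 0.0658 CPM in TUT4/7 cKO #2 (-1.08 ± 0.29 and -3.08 ± 0.35). HERC5 had at most 0.569 CPM in any IGROV1 library and 1 count in the 4 libraries of either mutant clone, so no fold is given. ISG15 was at 35.9, 37.3, 38.5 and 39.0 CPM in the wild-type, 12.2, 10.5, 17.8 and 19.4 CPM in TUT4/7 cKO #1 and 19.2, 19.6, 22.3 and 34.0 CPM in TUT4/7 cKO #2. It was called in TUT4/7 cKO #1 (-1.28 ± 0.29) and not in TUT4/7 cKO #2 (-0.68 ± 0.28, adjusted p = 0.0551), and all mutant libraries lay below the wild-type.

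Several members that led the DU145 clones were not called in IGROV1. IFIT1 was at 11.8, 9.13, 8.72 and 9.01 CPM in the wild-type, 15.03, 14.7, 13.6 and 8.54 CPM in TUT4/7 cKO #1 and 14.4, 18.4, 13.1 and 11.3 CPM in TUT4/7 cKO #2 (0.49 ± 0.31 and 0.54 ± 0.30). MX1 stood at 1.13 to 1.55 CPM in the wild-type, 1.60 to 2.06 CPM in TUT4/7 cKO #1 and 1.97 to 2.63 CPM in TUT4/7 cKO #2. The sensor genes DDX58 and IFIH1 changed by -0.018 ± 0.31 and -0.086 ± 0.39 in TUT4/7 cKO #1 and by -0.067 ± 0.30 and -0.20 ± 0.37 in TUT4/7 cKO #2. EIF2AK2, ADAR, STAT2 and IRF9 stayed within -0.22 and 0.15 in either clone, with no call.

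**Figure D4:**
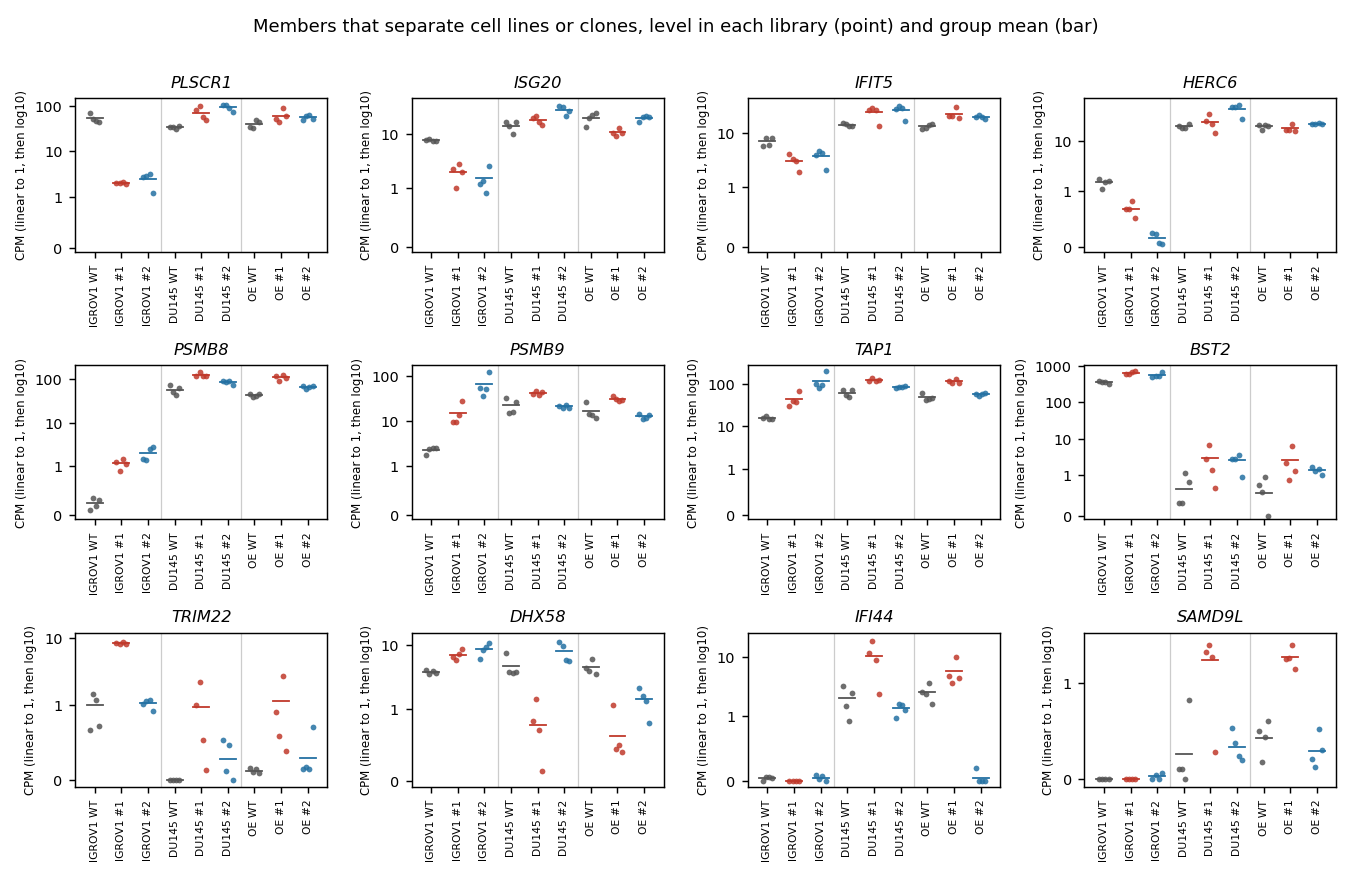
Levels (CPM) of 12 members in each of the 36 libraries (points) with the group mean (bar), colours and group names as in the plot of levels by library, on an axis that is linear to 1 and logarithmic above. PLSCR1 drops from 45.2 to 70.5 CPM in wild-type IGROV1 to 1.25 to 3.16 CPM in its mutants and PSMB9 climbs there, while DHX58 is lowest in TUT4/7 cKO #1 of both DU145 backgrounds.

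The change on TUT4/7 mutation differed between DU145 and IGROV1 for 21 of 43 members in an interaction test over both clones: it was more positive in DU145 for 17 and more negative for 4. Of all genes, 12.8% were more positive and 11.3% more negative in DU145, and the members' median difference was 0.64, against -0.001 over all genes. PLSCR1 differed most of the members, by 5.75 ± 0.27 (adjusted p = 3.89e-18). ISG20 (2.79 ± 0.29), IFI27 (2.75 ± 0.59), ISG15 (2.67 ± 0.35), IFIT1 (1.73 ± 0.37), MX1 (1.70 ± 0.47), IRF9 (1.46 ± 0.33), DDX58 (1.402 ± 0.36) and IFIH1 (1.38 ± 0.40) also differed, each with the more positive change in DU145. For PLSCR1, ISG20, HERC6 and IFIT5 the fall in IGROV1 was larger than the change in DU145. The 4 members that were more negative in DU145 were PSMB9 (-3.50 ± 0.44), DHX58 (-1.97 ± 0.38), PSMB8 (-1.86 ± 0.34) and TAP1 (-1.57 ± 0.28). Without the 4 libraries numbered 4, 22 members were called, and without the 6, 24.

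The lines already differed before mutation. Wild-type DU145 had 27 members higher and 4 lower than wild-type IGROV1, where 31.3% and 28.7% of all genes were called, and the members' median was 1.23, against 0.027 over all genes. OAS1 and MX2 had no count in wild-type IGROV1 and 3.15 ± 1.45 and 2.04 ± 0.856 CPM in wild-type DU145 (SD, n = 4), at least 72.2-fold and 46.7-fold higher over a floor of 3 counts for the 4 libraries together. UBE2L6 was at 40.0 to 45.8 CPM in DU145 and at most 0.0593 CPM in IGROV1, and SAMD9 at 9.51 to 17.4 CPM and at most 0.0518 CPM. PSMB8 was at 43.4 to 70.9 CPM in DU145 and 0.103 to 0.356 CPM in IGROV1, and HERC5 at 14.6 to 20.6 and 0 to 0.569 CPM. The reverse held for BST2, at 387, 362, 351 and 322 CPM in IGROV1 and 0.307, 0.311, 1.20 and 0.825 CPM in DU145, and for TRIM22, PLSCR1 (-0.74 ± 0.20) and STAT2 (-0.79 ± 0.17). ISG15 (-0.039 ± 0.28), IRF9 (0.048 ± 0.27) and IFI6 (0.61 ± 0.36) were among the members with no call between the lines.

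The clones of one background were compared directly, TUT4/7 cKO #2 against TUT4/7 cKO #1. In DU145, 6 members were higher and 11 lower, where 15.4% and 15.7% of all genes were called, with a members' median of 0.026. In LIN28A OE DU145, 4 were higher and 17 lower, where 20% and 17.6% were called, with a median of -0.67. In IGROV1, 4 were higher and 2 lower, where 10% and 8.79% were called, with a median of 0.10. The 2 DU145 contrasts share no library, though the labels give their clones the same names. In both, IRF7 and USP18 were higher in TUT4/7 cKO #2, and ADAR, IRF1, PSMB8, PSMB9, UBE2L6, IFI35, TRIM21, XAF1, SAMD9L and IFI44 were lower. No member was called in opposite directions. Of all genes tested, 12.1% were higher in TUT4/7 cKO #2 in both contrasts and 11.3% lower. IRF7 differed by 1.23 ± 0.23 in DU145 and 1.17 ± 0.23 in LIN28A OE DU145. TRIM21 differed by -0.93 ± 0.16 and -1.64 ± 0.16, SAMD9L by -2.64 ± 0.56 and -2.93 ± 0.52, PSMB9 by -1.13 ± 0.33 and -1.37 ± 0.33, and IFI44 by -3.08 ± 0.46 in DU145, with no value given for LIN28A OE DU145, where 3 libraries of TUT4/7 cKO #2 had no count. DHX58 was higher in TUT4/7 cKO #2 in DU145 (3.13 ± 0.37) and was not called in LIN28A OE DU145 (1.18 ± 0.40, adjusted p = 0.0147). In IGROV1 the called members were PSMB9 (2.11 ± 0.34), TAP1 (1.35 ± 0.23), IFI35 (0.85 ± 0.19) and USP18 (0.68 ± 0.15), higher in TUT4/7 cKO #2, and HERC6 (-1.99 ± 0.41) and TRIM22 (-3.001 ± 0.42), lower.

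**Figure D5:**
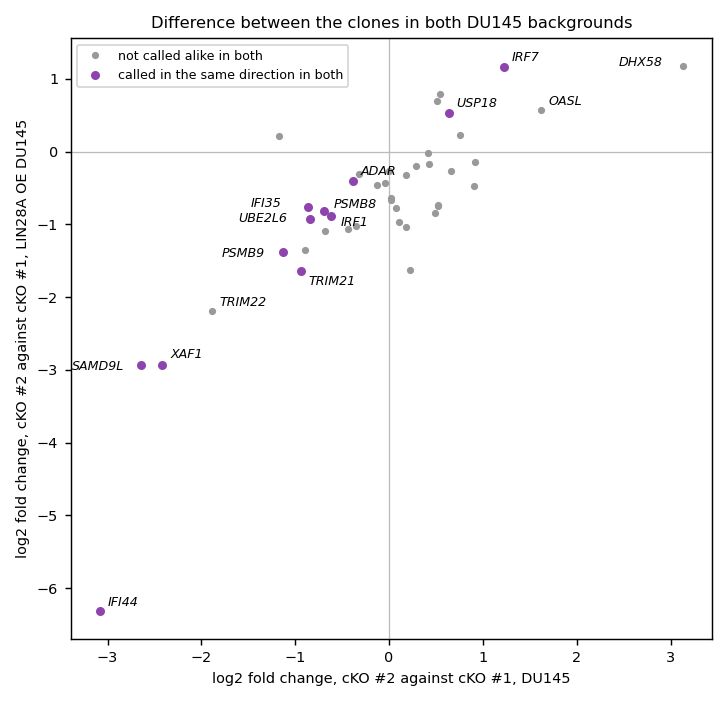
Log2 fold change of TUT4/7 cKO #2 against TUT4/7 cKO #1 in DU145 (x axis) and in LIN28A OE DU145 (y axis) for the 43 tested members, each a point, in purple where called in the same direction in both. The purple points are IRF7 and USP18 at the upper right and 10 members at the lower left.

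The genes that lie upstream of the members were followed as a list of 45 ligands, receptors, kinases, sensors and adaptors, 24 of which passed the filter. In DU145, 3 were higher and 6 lower in TUT4/7 cKO #1, and 3 higher and 4 lower in TUT4/7 cKO #2. This was 12.5% and 25% of the 24 tested in TUT4/7 cKO #1 and 12.5% and 16.7% in TUT4/7 cKO #2, against 10.4% and 11.3%, and 9.99% and 10.5%, of all genes. For LIN28A OE DU145 the counts were 4 and 5 in TUT4/7 cKO #1 and 0 and 3 in TUT4/7 cKO #2, and in IGROV1 they were 3 and 6 in TUT4/7 cKO #1 and 5 and 5 in TUT4/7 cKO #2. Of all genes, 11.3% and 13.9%, 10.5% and 10.1%, 14.5% and 16.6%, and 14.2% and 15.9% were called higher and lower in these comparisons, in that order. Of the 21 interferon genes, 9 had no count in any library, and the highest library value was 1.14 CPM, for IFNE in wild-type DU145. IFNB1 averaged 0.215 CPM in DU145 TUT4/7 cKO #1 and had no count in wild-type DU145. It did not pass the filter on low counts. The receptor chains of interferon alpha and beta were lower in the mutants of both DU145 backgrounds. IFNAR1 averaged 127 ± 9.39 CPM in wild-type DU145 (SD, n = 4), 69.5 ± 12.9 CPM in TUT4/7 cKO #1 and 93.7 ± 11.9997 CPM in TUT4/7 cKO #2. The change was -0.87 ± 0.13 and -0.55 ± 0.13. IFNAR2 averaged 73.3 ± 2.15 CPM, 30.4 ± 0.739 CPM and 57.6 ± 4.40 CPM in the same order (-1.27 ± 0.099 and -0.47 ± 0.096). For LIN28A OE DU145 the changes were -1.09 ± 0.13 and -0.65 ± 0.13 for IFNAR1 and -1.58 ± 0.099 and -0.60 ± 0.096 for IFNAR2. IFNGR2, a chain of the interferon gamma receptor, changed by -0.83 ± 0.10 and -0.56 ± 0.099 in DU145. STING1, the adaptor of cytosolic DNA sensing, was lower in TUT4/7 cKO #1 of DU145 (-0.88 ± 0.16) and of LIN28A OE DU145 (-1.39 ± 0.16) and in IGROV1 TUT4/7 cKO #2 (-1.60 ± 0.17). The kinase IKBKE and the feedback inhibitor SOCS3 were higher in DU145 TUT4/7 cKO #2, by 1.02 ± 0.19 and 1.06 ± 0.18. In IGROV1, IFNLR1, a chain of the interferon lambda receptor, went from 4.44 CPM to 0.277 and 0.485 CPM.

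A second list held 59 other interferon-stimulated genes outside the 46, 56 of which passed the filter. In DU145, 26 were higher and 3 lower in TUT4/7 cKO #1, and 9 higher and 6 lower in TUT4/7 cKO #2, with medians of 0.58 and 0.064. This was 46.4% and 5.36% of the 56 tested in TUT4/7 cKO #1 and 16.1% and 10.7% in TUT4/7 cKO #2, against 10.4% and 11.3%, and 9.99% and 10.5%, of all genes. With LIN28A OE, 20 were higher and 4 lower in TUT4/7 cKO #1 (median 0.39), and 2 higher and 13 lower in TUT4/7 cKO #2 (median -0.11). The shares of the list were 35.7% and 7.14% in TUT4/7 cKO #1 and 3.57% and 23.2% in TUT4/7 cKO #2, against 11.3% and 13.9%, and 10.5% and 10.1%, of all genes. In IGROV1, 21 were higher and 7 lower in TUT4/7 cKO #1 (median 0.34), and 11 higher and 7 lower in TUT4/7 cKO #2 (median 0.23). The list's shares there were 37.5% and 12.5% in TUT4/7 cKO #1 and 19.6% and 12.5% in TUT4/7 cKO #2, against 14.5% and 16.6%, and 14.2% and 15.9%, of all genes. CCL5, a chemokine, averaged 0.259 ± 0.102 CPM in wild-type DU145, 5.55 ± 1.998 CPM in TUT4/7 cKO #1 and 3.90 ± 1.15 CPM in TUT4/7 cKO #2. This was a log2 rise of 4.39 ± 0.43 and 3.73 ± 0.45. IFI16, a nuclear DNA sensor, was higher in TUT4/7 cKO #1 of DU145 (2.19 ± 0.22) and lower in TUT4/7 cKO #2 (-3.72 ± 0.31), and gave 1.82 ± 0.21 and -4.33 ± 0.32 in LIN28A OE DU145. In IGROV1, APOL1 averaged 145 CPM in the wild-type and 5.67 and 0.388 CPM in the mutants, APOBEC3G 5.33 CPM and 0.0676 and 0.0552 CPM, and GBP1, a guanylate-binding protein, 0.311 CPM and 8.04 and 6.29 CPM.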

How the data were processed

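Poly(A) RNA of human cancer cell lines was sequenced with a directional kit, as 36 libraries in 9 groups of 4. The authors trimmed the reads with Trimmomatic 0.39, removed ribosomal reads with sortmeRNA, aligned them to hg38 with HISAT2 2.1.0 and deposited raw counts per gene made with HTSeq; the strand setting and the gene annotation are not given in the sources used here, so reads of overlapping antisense genes could not be told apart. Lines of reads assigned to no gene (no feature, 7.25 to 12.6% of all reads of a library, assigned to a gene or not) were left out. The small RNA libraries and the miRNA table were not used here.

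Counts were fitted with edgeR 4.0.16 (R 4.3.3) as 1 quasi-likelihood model with 9 group means, TMM scaling factors of 0.84 to 1.123 and filterByExpr (minimum count 10, minimum total 15), which left 15556 genes. Benjamini-Hochberg adjustment covered all of them, a gene was called at an adjusted p under 0.01, and an error after ± on a log2 value is the standard error, computed from the fold change and the F statistic. CPM values were not scaled by TMM, and an error after ± on a CPM value is the SD. The scripts were tested on simulated counts. Alternatives were DESeq2 1.42.0, other size factors, no filter and only the groups compared. Others were a block by replicate number, a block by grouped replicate numbers, a threshold of 0.05 and leaving out each library in turn. Added after seeing the data were fits without 4 deviating mutant libraries together, or without these and 2 wild-type libraries. The members and gene lists were chosen with earlier results of these data known. Levels in every library of the groups compared are given for most members with a called absolute log2 fold change of at least 1. The change is that of a clone against its wild-type. They are also given, in DU145 at least, for IFIT1, ISG15, MX1, OAS1, IFIH1, DDX58, EIF2AK2, ADAR, STAT2 and IRF9. Remaining levels are given by counts, ranges or group means, and of the lists the called genes may be named. Replicate numbers did not pair the samples: over 144 pairs of libraries with the same number the correlation of deviations from the group mean ran from -0.465 to 0.896, with a median of 0.041. Promoter letters were read from RefSeq windows on GRCh38.p14. Other prostate markers are not reported here.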

Additional observations from a re-analysis of the deposited data

Results flagged for a closer look

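A library was set apart where its gap to the nearest of the other 3 passed Dixon's 95% critical value for 4 samples, which chance gives in about 1 of 20 groups; this happened in 20 of 278 groups of 36 members (7.19%). Replicate 4 of IGROV1 TUT4/7 cKO #1, which also stood apart over all genes, held 5 of them: IFI27 at 1.94 CPM (others 0.929 to 1.06), IFI35 at 17.2 CPM (10.1 to 10.9), DDX58 at 2.20 CPM (7.43 to 7.94), STAT2 at 87.7 CPM (65.3 to 66.5) and IRF7 at 5.69 CPM (3.34 to 3.51). Replicate 4 of IGROV1 TUT4/7 cKO #2 held IFIT3 at 6.45 CPM (9.18 to 9.58) and IFI6 at 39.0 CPM (17.4 to 21.0). Replicate 3 of LIN28A OE DU145 TUT4/7 cKO #1 held 4, all high: OAS1 at 16.7 CPM (6.03 to 7.80), DDX58 at 62.1 CPM (34.1 to 37.8), IRF7 at 23.4 CPM (12.7 to 13.7) and HERC6 at 21.8 CPM (15.6 to 16.4). Each of the others was in a library of its own. IFIT1 was at 11.8 CPM in replicate 1 of wild-type IGROV1 (8.72 to 9.13) and TRIM21 at 10.2 CPM in replicate 2 of IGROV1 TUT4/7 cKO #2 (8.43 to 8.62). In DU145, OAS1 was at 5.30 CPM in replicate 4 of the wild-type (2.15 to 2.67), DHX58 at 7.37 CPM in its replicate 1 (3.68 to 3.77), PSMB8 at 144 CPM in replicate 2 of TUT4/7 cKO #1 (112.4 to 116) and HERC6 at 27.2 CPM in replicate 4 of TUT4/7 cKO #2 (46.8 to 50.4). With LIN28A OE, IFI6 was at 45.8 CPM in replicate 3 of the wild-type (27.9 to 30.3), IFI35 at 15.6 CPM in replicate 2 of TUT4/7 cKO #2 (17.7 to 18.04) and OAS1 at 15.1 CPM in replicate 4 of TUT4/7 cKO #2 (10.1 to 10.7).

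The change on TUT4/7 mutation differed between backgrounds, by the interaction over both clones, for the following members (log2, edgeR quasi-likelihood test). In LIN28A OE minus LIN28A-negative DU145 the difference was -1.36 for OAS3, -1.75 for IFIT2, -1.81 for MX1, -1.86 for IFIT1, -1.95 for IFIT3, -2.23 for OASL, -2.39 for OAS1 and -2.68 for OAS2. In DU145 minus IGROV1 it was 5.75 for PLSCR1, 2.79 for ISG20, 2.75 for IFI27, 2.73 for HERC6, 2.67 for ISG15, 2.15 for IFIT2, 2.02 for IRF7, 1.88 for IFI6, 1.78 for IFIT5, 1.73 for IFIT1, 1.70 for MX1, 1.46 for IRF9, 1.41 for IFIT3, 1.402 for DDX58, 1.38 for IFIH1 and 1.01 for PARP9. HERC5 gave 4.18, a fitted value that rests on single counts in the IGROV1 mutants and depends on the prior count. The members with a negative difference were TAP1 at -1.57, PSMB8 at -1.86, DHX58 at -1.97 and PSMB9 at -3.50.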

How the results depend on the processing

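No member changed direction past the threshold in any of the alternatives run. With DESeq2 the interaction between LIN28A OE and LIN28A-negative DU145 called 13 members in place of 8; fitted on only the groups compared it called 3, without the 4 libraries numbered 4 it called 17, without the 6 farthest libraries 19, at an adjusted p under 0.05 it called 14, and leaving out 1 library at a time gave 1 to 12. For LIN28A OE against LIN28A-negative TUT4/7 cKO #1, 2 members were called, against 1 with RLE size factors, 0 with only the groups compared, 9 without the 4 libraries numbered 4, 12 without the 6, 6 at 0.05 and 0 to 3 leaving out 1 library at a time. For both LIN28A OE cKO clones, 6 became 10 with only the groups compared, 12 without the 6 libraries and 14 at 0.05, and 5 to 8 leaving out 1 library. For IGROV1 TUT4/7 cKO #2 against TUT4/7 cKO #1, 6 became 2 with only the groups compared. For LIN28A OE against LIN28A-negative wild-type DU145, 1 became 0 with only the groups compared, 7 without the 6 libraries, 7 at 0.05, and 1 to 2 leaving out 1 library. For LIN28A OE DU145, leaving out 1 library gave 9 to 17 called members in TUT4/7 cKO #1, with 9 without its replicate 3, and 5 to 8 in TUT4/7 cKO #2, with 5 without its replicate 1 or 2. In DU145 it gave 25 to 33 in TUT4/7 cKO #1, 19 to 22 in TUT4/7 cKO #2 and 20 to 27 for both. Fitted on only the groups compared, DU145 had 24 called members in place of 32 in TUT4/7 cKO #1. It had 22 in place of 21 in TUT4/7 cKO #2 and 24 in place of 27 for both. By the same fit LIN28A OE DU145 had 11 in place of 16 in TUT4/7 cKO #1 and 9 in place of 8 in TUT4/7 cKO #2. The fit with the replicate number as a block called 33 members in DU145 TUT4/7 cKO #1, 8 for both LIN28A OE clones, 22 between the LIN28A OE clones and 15 for both IGROV1 clones, and moved no count of calls by over 1.5 times; the numbers do not pair the samples. The causes were not tested. Depth limits members under about 1 CPM, where 1 count was worth 0.0399 to 0.139 CPM.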

Other observations

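In some groups most members were high or low in the same library. Of the 41 members that averaged at least 1 CPM over all libraries, 36 were highest in replicate 2 of DU145 TUT4/7 cKO #1 and 36 were lowest in its replicate 4, where 16.4% and 42.9% of all genes at that level were highest and lowest. Replicate 4 of DU145 TUT4/7 cKO #2 was the lowest of its group for 32 members, against 40.6% of genes. In LIN28A OE DU145 TUT4/7 cKO #1, replicate 3 was the highest for 36 members, against 37.7% of genes. Replicate 4 of wild-type DU145 was the highest for 22 members, against 20.2% of genes. In the other groups no library was the highest for more than 16 members or the lowest for more than 19. These counts describe single libraries, and no cause was tested.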
